A study of Mus musculus with 26 samples.

Results

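Open chromatin at baseline was compared between D1 and D2 medium spiny neurons (MSNs) of the mouse brain. The peak list of the D1 group (D1 SS, 2 libraries) was set against that of the D2 group (D2 SS, 2 libraries), which are 4 of the 26 libraries of the series. Both groups carry the treatment label SS, the baseline state of the study, and the series title places the work in the nucleus accumbens. The labels give no strain, age, genotype or marking of the nuclei, and nothing in them says whether the 2 libraries of a group came from separate animals. ATAC-seq, in which a transposase cuts accessible DNA and adds sequencing adapters, was used on nuclei, and each group has 1 list of peaks. A D1 and a D2 peak were called shared when they overlapped by at least 1 bp. A peak was called D1-only or D2-only when the nearest peak of the other list was more than 1 kb away. On chromosomes 1 to 19 and X, the D1 SS list held 28568 peaks over 14.2 Mb and the D2 SS list 61796 peaks over 34.6 Mb. No value exists per library, so no difference below has a replicate error or a test, and the 95% intervals given (Clopper-Pearson, exact) reflect counting error alone.

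MSNs are the projection neurons of the striatum and fall into 2 classes by their dopamine receptor. D1 MSNs carry the receptor encoded by Drd1, which couples to the cAMP-raising G protein Golf, and express the neuropeptide genes Tac1 (substance P) and Pdyn (dynorphin). D2 MSNs carry the receptor encoded by Drd2, which couples to the inhibitory G protein Gi, and express Penk (enkephalin) and Adora2a (an adenosine receptor). Both classes share an identity set by factors such as Bcl11b and Foxp1 and by signalling genes such as Ppp1r1b (DARPP-32), Pde10a and Rgs9. Accessible DNA marks promoters and distal elements that nucleosomes leave free, and a promoter can be open without its gene being transcribed.

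The promoters on which the comparison of marker genes turns are shown first, because they differ in which list covered them. Each sequence is the 250 bases before a RefSeq start site of the build GRCm38.p6, written 5′ to 3′ along the gene. Capitals mark matches to the words searched, which were CCCNNGGG (EBF), GGGCGGG (GC box) and TGACGTCA (CRE) among others, on either strand. Those of Drd1 (chr13:54055659-54055908, minus strand) and Pdyn (chr2:129699939-129700188, minus strand) overlapped a D1 SS peak and no D2 SS peak. Those of Drd2 (chr9:49340153-49340402, plus strand) and Gpr6, an orphan receptor gene of D2 MSNs (chr10:41072291-41072540, minus strand), overlapped a D2-only peak. At Drd1 the D1 SS peak reached only the end of the stretch next to the start site, and that peak was itself shared. Another RefSeq promoter of Drd1, not shown (chr13:54054781-54055030), overlapped peaks of both lists.
Drd1: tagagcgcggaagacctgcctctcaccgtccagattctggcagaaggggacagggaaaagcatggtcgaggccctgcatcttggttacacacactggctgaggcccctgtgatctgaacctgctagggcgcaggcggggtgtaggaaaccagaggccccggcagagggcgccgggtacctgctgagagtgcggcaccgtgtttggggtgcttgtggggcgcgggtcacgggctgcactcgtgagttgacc
Pdyn: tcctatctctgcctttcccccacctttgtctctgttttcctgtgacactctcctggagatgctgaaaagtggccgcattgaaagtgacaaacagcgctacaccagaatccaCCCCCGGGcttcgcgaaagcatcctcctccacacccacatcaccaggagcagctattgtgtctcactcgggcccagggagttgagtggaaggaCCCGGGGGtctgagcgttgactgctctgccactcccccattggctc
Drd2: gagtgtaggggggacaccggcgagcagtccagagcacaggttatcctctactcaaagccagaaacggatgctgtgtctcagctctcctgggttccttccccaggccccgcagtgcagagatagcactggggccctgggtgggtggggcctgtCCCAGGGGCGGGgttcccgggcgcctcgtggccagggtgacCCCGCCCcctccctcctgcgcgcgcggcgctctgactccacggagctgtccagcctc
Gpr6: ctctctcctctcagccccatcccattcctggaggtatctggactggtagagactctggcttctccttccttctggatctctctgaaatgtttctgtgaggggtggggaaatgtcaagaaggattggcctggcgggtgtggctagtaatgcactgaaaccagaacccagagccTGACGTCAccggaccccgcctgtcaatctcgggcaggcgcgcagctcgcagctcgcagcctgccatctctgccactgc
The Drd1 stretch held 0 matches, Pdyn 2, Drd2 3 (a GC box on each strand and an EBF word that overlaps the first) and Gpr6 1. These matches describe letters and not bound sites. Over the 300 bases that also take in the first 50 of the transcript, 13.8% of 32619 RefSeq promoters hold the EBF word, 25.7% the GC box and 1.80% the CRE.

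Nearly every D1 SS peak had a counterpart in the D2 SS list, whereas most D2 SS peaks had none in the D1 SS list. Of the D1 peaks, 28032 (98.1%, 97.96 to 98.3%) were shared, 110 lay within 1 kb of a D2 peak without touching it, and 426 were D1-only (1.49%). The shared count rests on an overlap of 1 bp, and 20638 D1 peaks were shared at a reciprocal overlap of 50%. Of the D2 peaks, 27302 (44.2%, 43.8 to 44.6%) were shared, 1517 lay within 1 kb and 32977 were D2-only (53.4%). The lists differ in depth as well as in length. The background pileup, the number of fragments expected at a site by chance, was 4.12 in D1 SS and 6.14 in D2 SS as computed from the steps between fold values. Its part in the difference in length was not tested.

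Shared peaks lay at promoters far more often than peaks of either exclusive set. Counted within 1 kb of a start site, promoter peaks made up 39.0% of shared D1 peaks (38.5 to 39.6%), 8.69% of D1-only peaks (6.19 to 11.8%, 37 peaks) and 13.5% of D2-only peaks (13.2 to 13.9%). The intervals of these 3 shares do not overlap. The promoter share was also lower among the weaker peaks of each list, as given below. The part of peak strength in this contrast was not tested. Proximal promoters, within 250 bp, held 33.1% of shared D1 peaks, 5.63% of D1-only and 8.70% of D2-only peaks. Gene bodies held 28.7% of shared D1 peaks, 52.6% (47.7 to 57.4%) of D1-only and 42.6% (42.1 to 43.1%) of D2-only peaks. The intergenic class held 27.4%, 31.7% and 36.5% in the same order. Among peaks assigned to a gene, protein-coding genes took 87.6% of shared D1, 87.5% of D1-only and 84.5% of D2-only peaks, and lincRNA genes 4.97%, 6.92% and 6.45%.

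**Figure D1:**
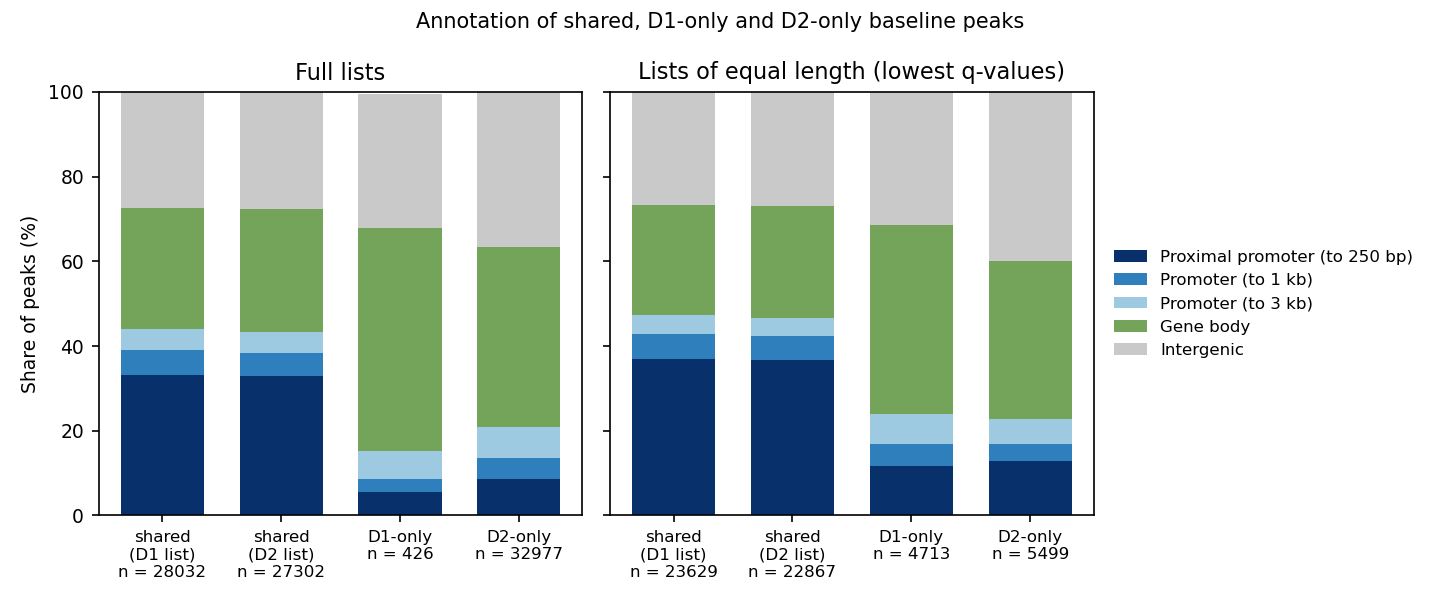
Share of peaks (%) by the authors' region class for shared peaks, read from either list, and for D1-only and D2-only peaks, with full lists at the left and lists of equal length at the right. Promoter classes (blue) fill 43.9% of the shared D1 bar, 15.3% of the D1-only bar and 20.8% of the D2-only bar at the left, and the subtelomere class, at most 0.469% of a set, is not drawn.

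The distances to the start site followed the same order. The median signed distance of shared D1 peaks with a gene was 143 bp (quartiles -30 and 27510 bp), that of D1-only peaks 21969 bp (4459 and 95894 bp) and that of D2-only peaks 16095 bp (512 and 66257 bp). Within gene bodies the 3 sets were alike, with medians of 45313, 42541 and 41244 bp, against the wide gap between the sets as a whole. Exclusive peaks were narrower and weaker. The median width was 508 bp for shared D1 peaks, 239 bp for D1-only and 446 bp for D2-only peaks, and 54.7% of the D1-only peaks were at most 250 bp wide against 15.4% of shared D1 peaks. The fold enrichment is the height of a peak over its local background as the authors' peak caller gave it. Its median within the D1 list was 4.58 for shared and 3.51 for D1-only peaks, and within the D2 list 5.96 for shared and 3.74 for D2-only peaks. The 1 kb limit decided few D1 calls: 21 D1 peaks lay in the last 500 bp inside it and 8 in the first 500 bp outside it.

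Strong peaks were common to both cell types. The q-value is the authors' false discovery rate per peak, and peaks are ranked by it here. None of the 5000 strongest D1 peaks was missing from the D2 list (at most 0.0738% by the upper bound of the interval). Of the 5000 strongest D2 peaks, 4 were missing from the D1 list. Those 4 were the promoter of Xkr4, a phospholipid scramblase family gene, a peak in the body of Drd2, and intergenic peaks on chromosomes 13 (101018953 to 101019682) and X (70294215 to 70294890). Among the 10000 strongest, 4 D1 peaks and 104 D2 peaks (1.04%) were missing from the other list. The D1 peaks were 2 in the lincRNA gene AC165273.2 near Drd1, 1 in the lincRNA gene Gm28905 and 1 in 2210408I21Rik. With rank the share of exclusive peaks rose, from 0 of the first 2000 D1 peaks to 8.63% (6.45 to 11.2%) of the last 568, and from 1 of the first 2000 D2 peaks to 93.3% of the last 1796. Peaks within 1 kb of a start site made up 75.2% of the first 2000 D1 peaks and 21.8% of the last 568. For D2 peaks the shares were 79.6% of the first 2000 and 15.1% of the last 1796.

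**Figure D2:**
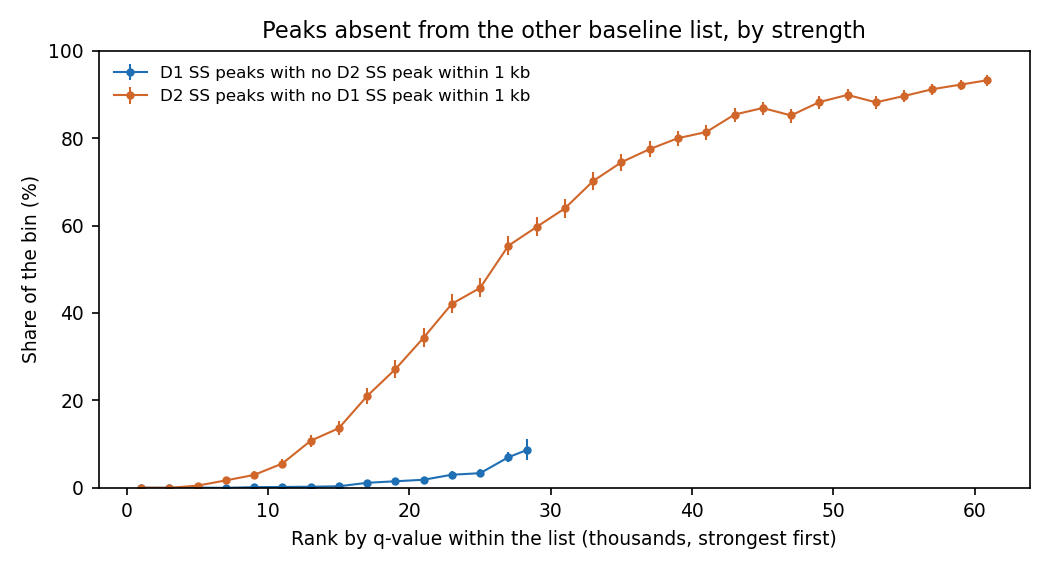
Share of peaks (%) farther than 1 kb from any peak of the other baseline list, in bins of 2000 peaks ranked by q-value within each list, with exact 95% binomial intervals. The D2 curve passes 55.4% at ranks 26001 to 28000, where the D1 curve stands at 7%.

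With both lists reduced to their 28568 peaks of lowest q-value, the contrast between shared and exclusive peaks in annotation stayed. Similar numbers of exclusive peaks on both sides follow from the cut itself. The D2 peaks kept had q-values up to 2.81e-13, while the D1 list kept all its peaks, up to a q-value of 0.0205. Shared D1 peaks numbered 23629 (82.7%, 82.3 to 83.1%), and exclusive peaks 4713 in D1 (16.5%) and 5499 in D2 (19.2%). The promoter share was 42.8% of shared D1 peaks, 16.9% (15.9 to 18.0%) of D1-only peaks and 16.8% (15.8 to 17.8%) of D2-only peaks, and the last 2 intervals overlap nearly completely. Gene bodies held 44.7% (43.2 to 46.1%) of D1-only and 37.3% (36.0 to 38.6%) of D2-only peaks. The intergenic class turned the other way, with 31.3% (29.97 to 32.6%) and 39.95% (38.7 to 41.3%). Of the 4713 D1-only peaks of equal-length lists, 4209 (89.3%) overlapped a D2 peak of the full list that ranked below 28568. Shorter cuts of equal number gave shared D1 shares of 70.4% (strongest 1000), 75.9% (5000) and 79.5% (10000), which can only be read as overlaps of those cuts.

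The Drd1 locus held the most D1-only peaks when chromosomes were divided into windows of 500 kb. The window with 4 of the 426 D1-only peaks holds Drd1, the window with 8 adjoins it, and of the rest 3 held 3 each, 26 held 2 and 353 held 1. Within 250 kb of the Drd1 start site (chromosome 13, position 54055658, minus strand), D1 SS held 27 peaks, of which 11 were D1-only, and D2 SS held 20 peaks, of which 5 were D2-only. With lists of equal length, 18 of 27 D1 peaks were D1-only and 0 of 8 D2 peaks were D2-only. The Drd1 promoter was open in both just past the stretch shown above: a D1 peak of 940 bp (54054751 to 54055690, fold 3.55, q-value 6.3e-13) overlapped a D2 peak of 603 bp (54054947 to 54055549, fold 3.45, q-value 3.64e-06). The D2 peak was not among the 28568 strongest. Exclusive D1 peaks with the lowest q-values near Drd1 lay in AC165273.2 at 124.6 kb (53930752 to 53931302, fold 4.44) and 131.5 kb (53923915 to 53924428, fold 3.82) along the gene from the start site. Upstream of Drd1, the neighbouring gene Sfxn1, a mitochondrial serine transporter, held 2 further D1-only peaks (fold 3.28 and 2.90) beside 3 shared ones.

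At Drd2 the lists stood further apart. Within 250 kb of its start site (chromosome 9, position 49340403, plus strand), D2 SS held 24 peaks, of which 22 were D2-only, and D1 SS held 2, both shared and both outside the gene. With equal lengths, 11 of 12 D2 peaks were D2-only. The gene has 6 D2 SS peaks and 0 D1 SS peaks. The promoter peak (49340083 to 49340697) had a fold of 3.58 and a q-value of 7.02e-27. The gene-body peak with the lowest q-value (49389309 to 49390103, fold 3.65, q-value 6.37e-46) lay 49079 bp from the start site, and those at 40259, 45799 and 67981 bp had folds of 3.16, 2.95 and 2.56. The weakest of the 6 lay 7196 bp from the start site (fold 2.11). Beyond the gene, 4 D2-only peaks were assigned to Ttc12, which lies downstream. The one with the lowest q-value had a fold of 4.55 (49455255 to 49455977).

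The D2 SS peaks at Drd2 stood on a high local background. The background of a peak, solved from its fold and its q-value and given as a multiple of the background of the whole list, was 4.98 at the Drd2 promoter and 8.22 at the strongest gene-body peak. Over a stretch around the gene, chosen after its values were seen, 17 D2 SS peaks from -64.18 to 149.99 kb had a median multiple of 5.24 (2.02 to 9.08). The 7 D2 SS peaks outside it within 250 kb had 1.22 (1.03 to 1.55). The other D2 lists showed the same stretch, with medians of 5.17 in D2 SC (acute cocaine), 5.71 in D2 CS (chronic cocaine and withdrawal) and 5.63 in D2 CC (relapse). The D1 lists with peaks there had 2.22 (SC), 1.15 (CS) and 1.21 (CC). Medians over all genes with a peak differ between lists. They were 2.30 (SC), 1.68 (CS) and 1.69 (CC) in D1, and 1.47 (SC), 1.82 (CS) and 1.52 (CC) in D2. By the median over its peaks, Drd2 ranked 1 of 12793 genes in D2 SS (6.76), ahead of Arrdc3 at 5.09. Drd2 ranked 3 of 12457 genes in D2 SC, 3 of 11394 in D2 CS and 1 of 12966 in D2 CC, and 6208 of 14008 in D1 CC.

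Drd1 showed the mirror image at a smaller size. Over a stretch chosen in the same way, 16 D1 SS peaks from -58.3 to 179.9 kb along the gene had a median multiple of 3.07 (1.55 to 3.81) and 7 D2 SS peaks 1.11 (1.03 to 1.60). The other D1 lists stood at 4.74 (SC), 3.67 (CS) and 4.10 (CC), and the other D2 lists at 1.25 (SC), 1.51 (CS) and 1.22 (CC). The medians over all genes given above apply here too, and that of D1 SC (2.30) is the highest of them. At the Drd1 promoter the multiple was 3.65 in D1 SS, rank 9 of 10097 genes, and 1.11 in D2 SS, rank 9947 of 12793. The labels do not say how the nuclei were marked or sorted, and the part of the raised background in the exclusive calls at Drd1, Sfxn1, AC165273.2, Drd2 and Ttc12 was not tested. More open chromatin over a locus and extra copies of it, such as a reporter transgene can carry, cannot be told apart in these lists, and the labels do not say whether the mice carried one. It spread past both genes and, in the 7 lists with peaks around Drd2 and the 8 with peaks around Drd1, was higher in each list of the labelled cell type than in any list of the other.

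**Figure D3:**
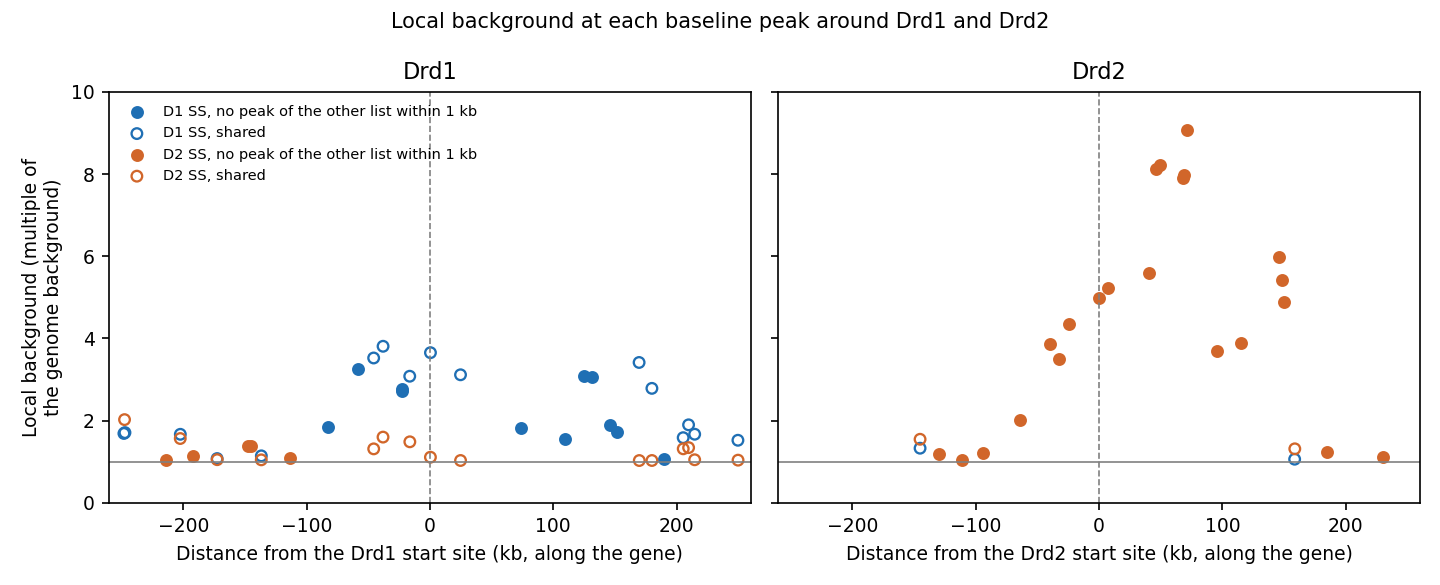
Local background under each baseline peak, as a multiple of the background of its list, against the distance from the start site (kb, along the gene) for Drd1 and Drd2. Blue marks D1 SS and orange D2 SS, filled points lie over 1 kb from any peak of the other list, and the orange points at Drd2 reach 9.08 while the blue points at Drd1 reach 3.81.

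Markers of D2 MSNs separated the lists most clearly. A peak was assigned to 9 of the 10 D2 MSN markers in D2 SS and to 1, Penk, in D1 SS, against 59.1% and 46.7% of 21631 protein-coding genes. All 9 held a D2-only peak, where 32.4% of genes did, and 0 held a D1-only peak (1.1%). With equal lengths, 8 of 10 held a D2-only peak (9.68% of genes) and 0 a D1-only peak. In that cut 47% of genes had a D2 SS peak. No peak was assigned to Gpr52 in any of the 8 lists, although D2 SS peaks covered 1444 bp of its body and the 5 kb on either side, and D1 SS peaks 0 bp.

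Adora2a held 3 D2 SS peaks, with folds of 3.12 and 3.41 at promoters and 2.35 in the gene body, and none in D1 SS. Penk was the shared member: its promoter peak spanned 301 bp in D1 SS (fold 4.76) and 689 bp in D2 SS (fold 3.76), where a further peak of 823 bp, 5772 bp from the start site, was D2-only (fold 2.91). Gpr6 had a promoter peak of 684 bp (fold 4.36, q-value 2.14e-24), over the sequence shown above, and a neighbour of 1234 bp (fold 3.15). The transcription factor genes Sp9 and Six3, which act in the D2 MSN lineage, had D2-only promoter peaks with folds of 4.86 and 3.82. Oprd1, the delta opioid receptor gene, held 1 peak at its promoter (fold 4.85) and 1 in its body (fold 5.27). Grik3, a kainate receptor subunit gene, held 5 D2-only peaks with folds of 2.47 to 4.36, and Upb1 held 4 with folds of 2.72 to 6.44.

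The lack of D2 marker peaks in D1 SS did not extend to the other D1 lists. Of the 10 D2 MSN markers, 9 had a peak in D1 CC, and 8 had one in each of D1 SC and D1 CS. Drd2 had 4 peaks in D1 CC, 2 in D1 SC and 4 in D1 CS, and Gpr6 had 2 in each. Adora2a was the exception among the markers with a D2 SS peak: of the D1 lists only D1 CC held peaks there, 2 in number. The lists of D1 CS (48443 peaks) and D1 CC (77070 peaks) are longer than that of D1 SS, while that of D1 SC (28310 peaks) is not. The background pileup was 1.15 in D1 SC, against 4.12 in D1 SS. The part of length and depth in this contrast was not tested.

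Markers of D1 MSNs did not separate the lists in this way. A peak was assigned to 9 of the 10 in D1 SS and to 8 in D2 SS. With full lists 3 held a D1-only peak and 3 a D2-only peak, where 1.1% and 32.4% of all genes did. With equal lengths the counts were 5 and 1, where 9.28% of all genes held a D1-only and 9.68% a D2-only peak. Pdyn was the 1 marker with a peak in D1 SS (129699704 to 129700124, 421 bp, fold 3.03, q-value 0.000461) and none in D2 SS. That promoter peak was found in 3 of 3 other D1 lists and in 1 of 3 other D2 lists. Tac1 had 2 shared peaks, with folds of 4.43 and 3.63 in D1 SS and 5.00 and 5.70 in D2 SS. The promoter of Isl1, a LIM homeobox factor of the D1 lineage, was shared too, at a fold of 5.50 in D1 SS and 6.76 in D2 SS.

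Counts within the large D1 marker genes turned with the length of the lists. Ebf1, a helix-loop-helix factor of D1 MSNs, had 5 D1 SS peaks (1 D1-only) and 13 D2 SS peaks (9 D2-only), Eya1 had 4 and 9, and Zfp521 had 4 and 9. At equal lengths Ebf1 had 5 D1 SS peaks (3 D1-only) and 2 D2 SS peaks (0 D2-only), Eya1 had 4 and 3, and Zfp521 had 4 and 6. The promoters of Ebf1 illustrate the limit of a gene-level count: its D1 peak (fold 4.38) and a D2 peak at another start site (fold 3.39) lay within 1 kb of each other and did not overlap. No peak was assigned to Chrm4, the muscarinic M4 receptor gene, in either baseline list, though peaks within 5 kb of its body covered 428 bp in D1 SS and 564 bp in D2 SS. The local background in D1 SS and D2 SS was 3.65 and 1.11 at Drd1 and 3.08 and 1.49 at its neighbour Sfxn1, which lie in the stretch described above. At the other D1 markers with peaks in both lists it was nearer, at Slc35d3 (2.77 and 2.09), Isl1 (2.053 and 1.4997), Tac1 (1.64 and 1.26), Zfp521 (1.25 and 1.17), Ebf1 (1.09 and 1.05) and Eya1 (1.25 and 1.37), beside medians over all genes with a peak of 1.41 and 1.39.

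**Figure D4:**
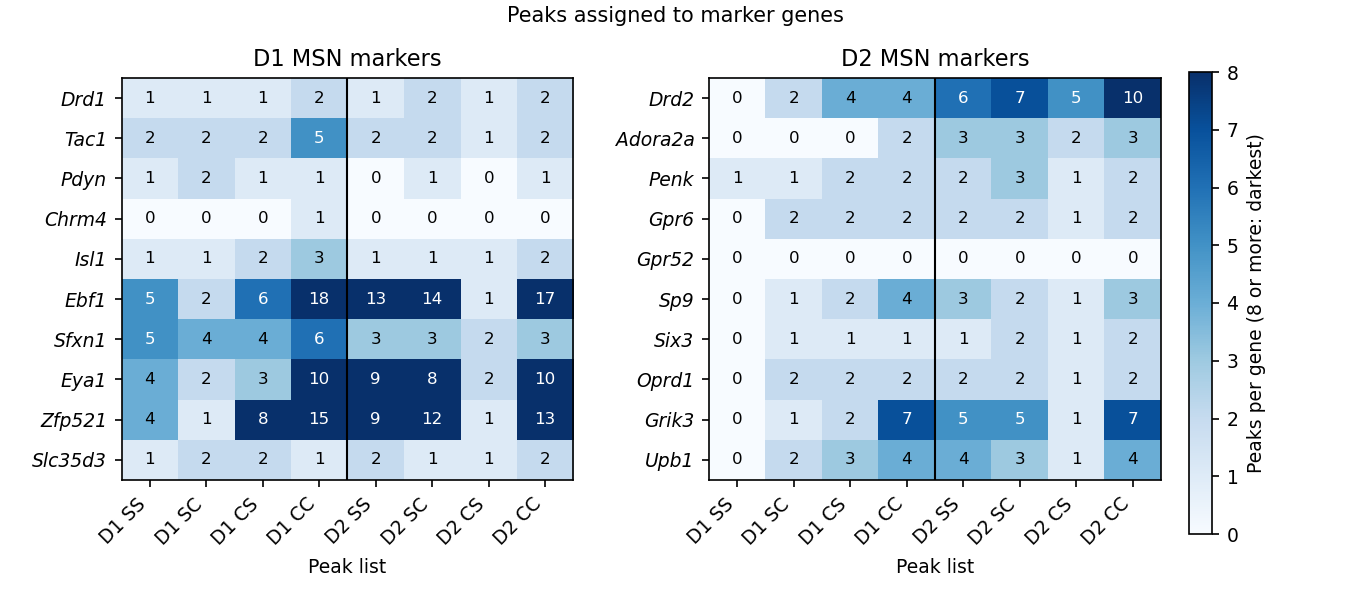
Number of peaks assigned to each D1 MSN marker (left) and D2 MSN marker (right) in the 8 peak lists, with darker cells for more peaks. In the right panel the D1 SS column is 0 for every gene except Penk, which has 1, while D2 SS has 6 peaks at Drd2 and 5 at Grik3.

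Genes common to both MSN classes were open in both lists. Of 12 pan-MSN genes, 11 had a D1 SS peak and 12 a D2 SS peak. At equal lengths 6 held a D1-only and 5 a D2-only peak, against 9.28% and 9.68% of all genes and 15.8% and 18.3% of genes of 50 to 150 kb, the length class of this list's median. The exception in D1 SS was Ptpn5, the striatum-enriched phosphatase STEP, with 0 peaks against 2. Ppp1r1b had 1 D1 SS and 2 D2 SS peaks, Pde10a 11 and 18, Rgs9 5 and 10, and Adcy5, the main striatal adenylyl cyclase, 2 and 7. At equal lengths the D2 excess went at Ppp1r1b (1 and 1), Rgs9 (5 and 5) and Ptpn5 (0 and 0). It turned at Pde10a (11 and 8) and stayed, though smaller, at Adcy5 (2 and 3).

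Striatal transcription factor genes had peaks in 14 of 18 cases in D1 SS and in 18 of 18 in D2 SS. At equal lengths 7 held a D1-only and 7 a D2-only peak, beside the same 15.8% and 18.3% for genes of their median length class. The genes without a D1 SS peak were Ikzf1, Dlx1, Dlx2 and Dlx5, and each had a peak in every other D1 list. Dlx1 had 0 in D2 CS. Ikzf1 encodes Ikaros, a factor of Penk-expressing neurons, and had 2 D2-only peaks at either length. Dlx1 and Dlx5, homeobox genes of GABAergic neurons, kept a D2-only peak at equal lengths, while Dlx2 did not. Dlx6 was shared. Foxo1 held a D1-only peak at equal lengths (52305303 to 52305778 on chromosome 3, fold 5.90).

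Opioid genes divided by member in the baseline pair. Of 8 genes, 1 held a D1-only and 4 a D2-only peak, where 1.1% and 32.4% of all genes did. At equal lengths the counts were 1 and 3, where 9.28% and 9.68% did. Pdyn was D1-only, Oprd1 and Pnoc (nociceptin precursor, fold 4.79) were D2-only, and the peaks of Oprk1, the kappa receptor gene, and Pomc were shared. Penk held 1 shared and 1 D2-only peak. Oprd1 and Pnoc had peaks in all other D1 lists, and Pdyn in D2 CC and D2 SC. Oprm1, the mu receptor gene, had 2 D1 SS peaks, both shared, and 6 D2 SS peaks, of which 4 were D2-only and 1 remained so at equal lengths. Oprl1 had none in either baseline list.

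Dopamine and cAMP signalling genes had a peak in 16 of 16 cases in both lists. Over all genes the shares were 46.7% in D1 SS and 59.1% in D2 SS. At equal lengths 7 held a D1-only and 6 a D2-only peak. Of genes of 50 to 150 kb, the length class of this list's median, 15.8% and 18.3% did. Of 18 glutamate receptor genes, 15 had a D1 SS and 17 a D2 SS peak, and 11 held a D1-only and 11 a D2-only peak at equal lengths. For 18 ion channel genes the equal-length counts were 11 and 9, for 18 synaptic adhesion genes 13 and 14, and for 22 axon guidance genes 15 and 14. In the last list Dcc and Unc5d, netrin receptor genes, each had 7 D2-only peaks and 1 D1-only peak. Of 14 muscarinic, adenosine, cannabinoid, serotonin and tachykinin receptor genes, 1 held a D1-only peak (Adora1, with 3) and 4 a D2-only peak at equal lengths. Their median length falls in the class of 50 to 150 kb, with the same 15.8% and 18.3%. Many of these genes are long, and length goes with such counts: among 227 genes of at least 500 kb, 70.0% held a D1-only and 72.2% a D2-only peak at equal lengths, against 3.41% and 2.96% of 11655 genes under 20 kb. The medians of the glutamate receptor, ion channel and axon guidance lists fall between 150 and 500 kb. Of genes of that length, 43.6% held a D1-only and 43.8% a D2-only peak at equal lengths. With full lists 85.4% of them had a D1 SS peak and 94.3% a D2 SS peak.

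Promoters of rapid immediate-early genes were mostly shared. Of 18 genes, 15 had a D1 SS peak and 15 a D2 SS peak, 0 held a D1-only peak and 4 a D2-only peak (Fos, Fosb, Egr3 and Nr4a2). Over all genes the shares were 1.1% and 32.4%, and for genes under 20 kb, as most of these are, 0.275% and 14.8%. At equal lengths 3 held a D1-only peak (Junb, Npas4 and Nr4a2) and 1 a D2-only peak (Nr4a2). Fos had no D1 SS peak and 2 weak D2 SS promoter peaks (fold 3.34 and 3.06), neither among the strongest 28568. Egr1 had 1 shared peak, over 1146 bp in D1 SS and 1163 bp in D2 SS. Jun had a peak by name in D1 SS alone, but peaks within 5 kb of it covered 1612 bp in D1 SS and 2307 bp in D2 SS. Of 16 housekeeping genes, 15 had a D1 SS peak and 16 a D2 SS peak, with 1 D1-only (Rab7) and 0 D2-only genes at equal lengths.

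Markers of other cells of the striatum and cortex were counted in the same way. Over 6 lists and 64 genes, 16 had a D1 SS peak, 33 a D2 SS peak and 30 none in either, where 46.7% and 59.1% of all genes had a D1 SS and a D2 SS peak. A D1-only peak was held by 1 and a D2-only peak by 27, where 1.1% and 32.4% of all genes held one. At equal lengths the counts were 9 and 7, where 9.28% and 9.68% of all genes held one. The bases covered, within 5 kb of the genes, were 14199 in D1 SS and 41852 in D2 SS, and at equal lengths 16 and 14 genes had a peak. Astrocyte markers had a peak in 3 of 10 (D1 SS) and 6 of 10 (D2 SS) cases, oligodendrocyte lineage markers in 3 and 5 of 11, microglia markers in 1 and 5 of 10, vascular markers in 3 and 5 of 10, striatal interneuron markers in 2 and 6 of 14 and cortical excitatory neuron markers in 4 and 6 of 10. The 30 markers with no peak in either baseline list included Mog, Mag, Sox10, Cx3cr1, Tmem119, Cldn5, Slc5a7, Sst, Pvalb and Neurod6. Other markers went the other way. RefSeq promoters of Sall1 (microglia), Kdr (vascular), Npy (interneuron) and S100b, Fgfr3 and Gjb6 (astrocyte) lay under a D2-only peak of the full lists, though not at equal lengths. The most peaks were at Mbp, with 6 D1 SS and 12 D2 SS peaks, and Slc1a2, with 5 and 6. Gfap had a single D1-only peak (254 bp, fold 3.24). The part of other cell types in the longer D2 list was not tested.

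The D1-only peaks of lowest q-value, 1 per gene, were small. After AC165273.2 came Gm28905 (205 bp, fold 5.86), 2210408I21Rik (205 bp, 5.66), Apool, a mitochondrial membrane organizing gene (364 bp, 5.47), and Slc6a3, the dopamine transporter gene (200 bp, 4.68). Khdrbs2 (4.66), Gm11399 (4.24), 5730522E02Rik (4.10), Sfxn1 (3.28) and Hecw2 (4.34) completed the 10. The peaks in Gm28905, Slc6a3 and Gm11399 were in none of the other 6 lists, and that in Apool was in 5 of them. Slc6a3 held 2 D1-only peaks and no D2 SS peak.

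The D2-only peaks of lowest q-value, the first 10 of 32977 where the D1 ones were the first 10 of 426, lay at the promoters of Xkr4 (1768 bp, fold 6.78), Osbpl9, an oxysterol-binding protein gene (720 bp, 9.02), Pnp2, a purine nucleoside phosphorylase gene (921 bp, 9.22), and Cdkn2a, a cell cycle inhibitor gene (929 bp, 8.81). Others lay in the bodies of Drd2 (795 bp, 3.65), Shc4 (719 bp, 8.04), Calcrl, a receptor gene of the calcitonin family (673 bp, 8.13), Thsd7b (617 bp, 8.94), Mettl15 (663 bp, 8.53) and Unc5c (699 bp, 7.87). They are the same at equal lengths, since that cut keeps all D1 SS peaks. Xkr4 was found in 2 of 3 other D2 lists and the remaining 9 in 3 of 3. Each was also found in at least 1 other D1 list, and Drd2, Shc4, Osbpl9, Pnp2 and Cdkn2a in 3 of 3.

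For D1-only peaks of equal-length lists the named peaks were those of AC165273.2, Foxo1, Rufy3 (fold 5.60), Sfxn1 (3.93), Gm26561 (6.44), Arid1a, a chromatin remodelling subunit gene (4.64), Ctdspl (4.86), Serpinb3b (6.25), Eid2 (6.05) and Alk, a receptor tyrosine kinase gene (5.85). All except AC165273.2, found in 1, were in at least 2 of the 3 other D2 lists. The shared peaks of highest fold in D1 SS lay in Filip1l (13.5 in D1 SS, 10.1 in D2 SS), the adhesion gene Chl1 (13.4, 12.03), Lars2 (12.9, 9.74) and at the promoters of AC124732.1 (12.5, 13.0) and Gm28551 (12.5, 13.6). Folds are not scaled between lists, so these pairs show presence in both and not a difference.

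Long neuronal genes collected the most exclusive peaks. With full lists Lingo2 held 5 D1-only peaks, Celf2 3, and Slc6a3, AC165273.2 and Hecw2 were among those with 2. Ctnna2, which encodes a neuronal catenin, held 33 D2-only peaks (3.005 per 100 kb), followed by Cntnap2, Pde4d, Lsamp and Macrod2 with 29 each, a count that Magi2 also reached. At equal lengths the leaders on the D1 side were the RNA-binding protein genes Celf2 (10) and Rbfox3 (9), Lingo2 (9), Atxn1 (8) and Adgrb3 (8). Celf2, Lingo2 and Rbfox3 had 0 D2-only peaks in that cut, which drops the weaker D2 SS peaks and keeps all D1 SS peaks. With full lists Celf2 held 7 D2-only peaks and Lingo2 6. On the D2 side they included Astn2 (8), Sgcd, Dcc and Unc5d (7 each), with 1 or 2 D1-only peaks apiece. Rbfox3, which encodes the neuronal marker NeuN, had 2.13 D1-only peaks per 100 kb, the highest density among the 5 leaders on the D1 side.

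Gene by gene, 239 genes (1.1%) held a D1-only peak and 7019 (32.4%) a D2-only peak. The median length was 148 kb for the former, 50.5 kb for the latter and 17.3 kb for all genes. At equal lengths 2008 and 2093 genes did, and 564 genes held both kinds, 28.1% of the first and 26.9% of the second. A D1 SS peak without any D2 SS peak was found in 202 genes, and a D2 SS peak without any D1 SS peak in 2898.

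The peak lists of the other 6 groups, which took no part in the choice of these peaks, held many of them in either cell type. D1-only peaks were found in any other D1 list in 64.8% (60.05 to 69.3%) and in any other D2 list in 64.3% (59.6 to 68.9%) of cases. The share was 62.7% for D1 CC, 28.2% for D1 CS and 10.3% for D1 SC. For the D2 lists it was 55.6% (CC), 38.0% (SC) and 4.46% (CS), and 81 of the 426 (19.01%) were in none of the 6. The shares of the single lists followed the order of list length. The D1 lists held 77070 (CC), 48443 (CS) and 28310 (SC) peaks, and the D2 lists 68424 (CC), 58790 (SC) and 27898 (CS). D2 CC and D2 SC had 1 library each and D2 CS had 8. The part of list length in these shares was not tested. D2-only peaks were found in any other D1 list in 72.5% (71.98 to 72.95%) and in any other D2 list in 86.4% (86.02 to 86.8%) of cases, and in none in 7.58%. Of shared D1 peaks, 98.3% were in another D1 list and 99.8% in another D2 list.

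**Figure D5:**
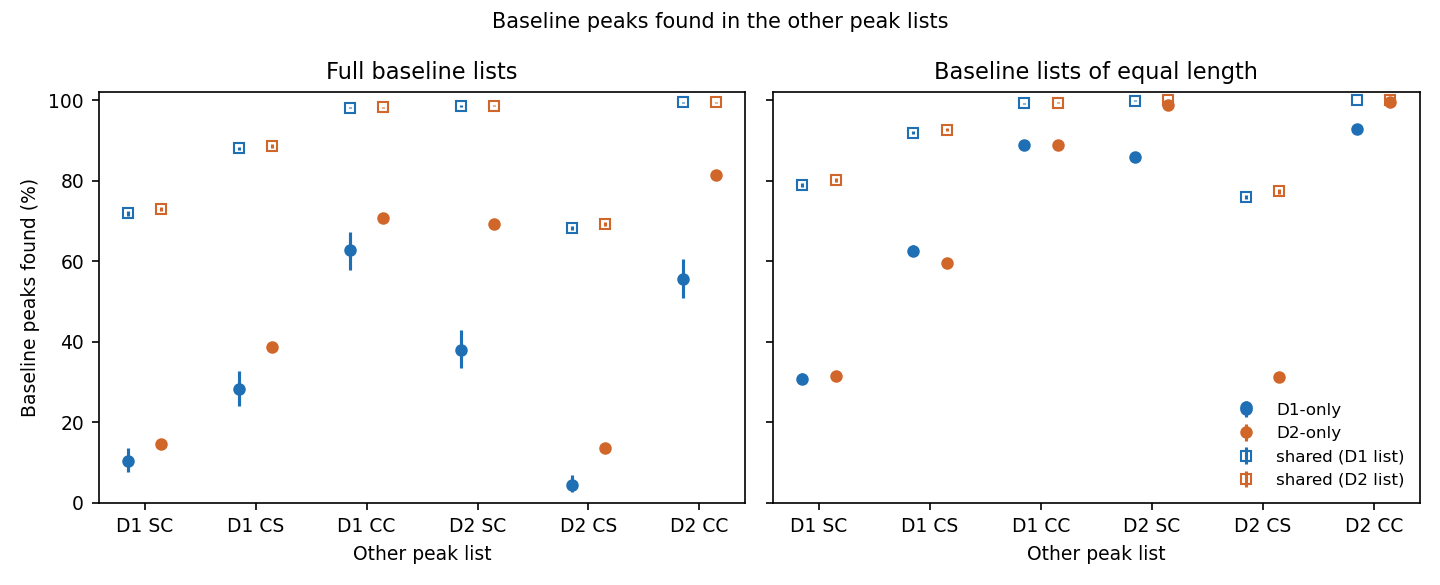
Share of baseline peaks (%) found in each other peak list, with exact 95% binomial intervals, for full baseline lists (left) and lists of equal length (right). Filled circles are D1-only (blue) and D2-only (orange) peaks and open squares shared peaks, and at the left the D1-only circles run from 4.46% in D2 CS to 62.7% in D1 CC.

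Strength in the list of origin changed these shares for D2-only peaks. At a fold of 5 or more, 99.9% of 4019 D2-only peaks were in another D2 list and 87.6% in another D1 list, and below a fold of 3.5 the shares were 73.0% and 63.4% of 12099 peaks. For D1-only peaks, the 78 with folds from 4 to 5 were in another D1 list in 64.1% and another D2 list in 73.1% of cases. At equal lengths 89.96% of D1-only peaks were in another D1 list and 95.2% in another D2 list, and of D2-only peaks 89.3% and 99.9%.

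Few exclusive peaks followed the cell type through all lists. Of the 426 D1-only peaks, 5 were in all 3 other D1 lists and in no D2 list, and 3 of the 5 lay near Drd1 (folds of 4.33, 3.82 and 4.33). The opposite, presence in all 3 other D2 lists and no other D1 list, was found for 0 of the 426. Of the 32977 D2-only peaks, 37 were in all 3 other D2 lists and in no D1 list, while 90 showed the opposite, being in all 3 other D1 lists and no other D2 list. Among the 37, 5 belonged to the Drd2 locus. Peaks within 1 kb of a start site lay at Ank3, the ankyrin-G gene (fold 2.84), Nipal4 (2.94), Gm42962 (4.76) and Il18, a cytokine gene (3.64). Gene-body peaks included those in Opcml (3.501) and Cntn4 (4.66), which encode adhesion proteins, in Cep128 (6.02), Ctnna2 (3.93), St6galnac3 (4.58), Zfp804b (4.06) and Lrrc3b (4.06).

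Shared and exclusive promoters also differed in base composition. The 9629 RefSeq promoters under peaks of both lists had a median GC content of 63.0% and 24 CpGs in 300 bases, the 2198 under a D2-only peak 60.3% and 17, and the 20048 under no peak 48.3% and 4. The GC box was in 52.0%, 40.2% and 11.0% of them and the TATA word (TATAAA) in 5.35%, 7.96% and 18.5%. At equal lengths the 438 promoters under D1-only and 627 under D2-only peaks were close to each other, with a GC content of 59.7% and 60.7% and 19 CpGs each.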

How the data were processed

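ATAC-seq was run on nuclei of D1 and D2 MSNs, and 1 peak list per group was deposited. Per the submitters' processing notes, cutadapt, HISAT, SAMtools and MACS2 were used with the build mm10. How the libraries of a group were joined into its list is not given in the sources used here. Per the file headers, each peak has a fold enrichment (a ratio over local background), a q-value on a linear scale, a region class, a distance to the start site in bp, and a gene name. Read counts per library were not analysed here, so replicate spread is unknown.

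Lists were compared by interval overlap with pandas 2.3.3, numpy 2.4.6 and scipy 1.17.1 under Python 3.11.15 (figures: matplotlib 3.10.9), and the code was tested on simulated data. For equal lengths, peaks were ranked by q-value, with ties by higher fold. The background pileup and the local background were solved from the fold values and q-values, taking fold as (pileup + 1)/(background + 1). Genes were counted by the deposited names, of which 14950 of 21532 matched a RefSeq protein-coding gene, as did all 247 genes of 19 lists. Named peaks were the 10 of lowest q-value per direction, 1 per gene, in gene bodies or within 1 kb of a start site, and the 5 genes with the most exclusive peaks. The 5 shared peaks of highest fold and the marker genes were named as well. Members and lists were chosen with earlier results of these data known. Alternatives were a q-value limit, reciprocal overlap, wider gaps, autosomes only, a 3 kb promoter, and gene bodies with 5 kb on each side. Sequence under the peaks was not analysed here. Values of some single genes are not reported here.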

Additional observations from a re-analysis of the deposited data

How the results depend on the processing

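With lists of equal length by q-value, D1-only peaks went from 426 to 4713 and D2-only peaks from 32977 to 5499, and by fold to 5808 and 6691. The promoter share then was 42.8% for shared, 16.9% for D1-only and 16.8% for D2-only peaks by q-value, and 23.7% and 14.0% for the exclusive sets by fold, so their order depends on this choice. D1 MSN markers with a D1-only peak went from 3 to 5 and with a D2-only peak from 3 to 1. The shares found in other lists rose to 89.96% (D1 lists) and 95.2% (D2 lists) for D1-only and to 89.3% and 99.9% for D2-only peaks. With q-values of at most 1e-05, 220 D1-only peaks were left, the promoter share was 42.3% for shared and 15.4% for D2-only peaks, and 70% of D1-only peaks were in other D2 lists, while D2-only peaks were in other D1 lists in 74.2% and other D2 lists in 89.8% of cases. A reciprocal overlap of 50% left 20638 shared D1 peaks in place of 28032, with a promoter share of 39.9%. It gave 38.7% and 41.1% of D1-only peaks in other D1 and D2 lists, and 53.5% and 71.3% of D2-only peaks. With a promoter limit of 3 kb the shares were 43.9%, 15.3% and 20.8% for shared, D1-only and D2-only peaks. Of the alternative values, 28 stayed within 1.5 times or within the interval of the main value, the 20638 shared peaks among them. No paired analysis was possible because each group has a single list with no values per library, and for the same reason no library could be left out.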

Other observations

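Chromosomes shared out the exclusive peaks unevenly at equal list lengths. On X, 50 of 726 D1 SS peaks were D1-only (6.89%) and 193 of 853 D2 SS peaks were D2-only (22.6%), against 16.5% and 19.2% over all chromosomes. On chromosome 7 the order was the reverse, with 236 of 987 D1 SS peaks (23.9%) and 121 of 844 D2 SS peaks (14.3%).

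RefSeq promoters under a D1-only peak of the full lists numbered 10. They belonged to Pdyn, the histamine receptor gene Hrh1, Psenen (a gamma-secretase subunit) and its neighbour U2af1l4, the sialidase gene Neu3, the sphingosine-1-phosphate receptor gene S1pr2, Gm36875 with 2 start sites, Tmem101, and Ier3.

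The receptor loci were not alone in their raised local background. Of 10378 windows of 100 kb with at least 3 D2 SS peaks, 56 had a median of at least 3 times the background of the list and 4 of at least 5 times, where the median window had 1.27. Of the 4, 2 lay at Drd2 (5.11 and 5.42). Of 3698 such windows in D1 SS, 12 reached 3 and 2 reached 5, where the median window had 1.40. The window of Drd1 stood at 3.10, and the 2 at 5 or more lay elsewhere, on chromosome 2 from 98600001 (16.4) and on chromosome 9 from 3000001 (6.49).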
